A study of Mus musculus with 6 samples.

Results

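The CCN family comprises 6 genes, Ccn1 to Ccn6, which encode secreted matricellular proteins. Its members were chosen by gene name with earlier results of these arrays known, and the measured value selected on was the mean level over the 6 arrays, which decided the probe set where a gene had several. Each of the 6 genes had 1 probe set carrying its symbol alone, so that choice changed nothing, and 6 of 19938 tested genes were described. The older symbols Cyr61, Ctgf, Nov, Wisp1, Wisp2 and Wisp3 belong to Ccn1, Ccn2, Ccn3, Ccn4, Ccn5 and Ccn6.

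The arrays read total RNA of bone marrow stromal cells (BMSCs), the adherent cells of marrow that can form osteoblasts or fat cells. There were 3 arrays from wild-type mice (WT) and 3 from mice carrying a knockout of the microRNA miR-188 (KO188), both on a C57BL/6 background and 6 months old. Both groups were grown in alpha-MEM with 10% fetal calf serum, 100 nM dexamethasone, 10 mM beta-glycerophosphate and 0.05 mM ascorbic acid 2-phosphate, a medium that drives bone matrix formation, so neither group is an untreated state. The titles call the arrays of a group biological replicates but do not say whether each had a mouse or culture of its own, and the p-values measure only the spread between these samples. No label names a batch that holds both groups, so genotype and a culture difference shared by the KO188 samples cannot be told apart.

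The microRNA that the KO188 mice lack is shown here by its mature arms from RefSeq (GRCm38.p6), with the seed, bases 2 to 8, in capitals. The arms lie on the minus strand at chrX:7248031-7248051 (5p) and chrX:7247992-7248012 (3p).
mmu-miR-188-5p: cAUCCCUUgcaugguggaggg
mmu-miR-188-3p: cUCCCACAugcaggguuugca
The probe set of Mir188 read 7.15, 7.13 and 7.16 (log2) on the WT arrays and 7.03, 7.13 and 7.09 on the KO188 arrays. The difference, -0.06 (SE 0.034, limma adjusted p = 0.24), did not pass the test, although it did with each array centred on its median (-0.12, adjusted p = 0.029) and with quantile normalization (-0.10, adjusted p = 0.029). Since the extent of the deletion is not stated in the labels, the probe set does not check the genotypes.

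CCN proteins are built from modules that resemble an insulin-like growth factor binding domain, a von Willebrand factor type C repeat, a thrombospondin repeat and a cystine knot, and CCN5 lacks the cystine knot. They act through integrins, low-density lipoprotein receptor-related proteins and heparan sulphate, and they bind growth factors in the matrix. In bone, Ccn1 and Ccn2 are rapid targets of the Hippo coactivators YAP and TAZ and of TGF-beta, Ccn4 is a Wnt-induced gene that favours osteoblast over fat cell formation, Ccn3 restrains osteoblast differentiation, and Ccn5 acts in uncommitted mesenchymal precursors.

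The family did not move as a block. Ccn3 and Ccn5 were several-fold higher in KO188, Ccn4 was lower, Ccn1 and Ccn2 were slightly higher, and Ccn6 showed no difference beyond its spread. With limma (Benjamini-Hochberg adjusted p under 0.05 over all tested genes), 4 of 6 members rose and 1 fell. Over all tested genes 29.8% passed the same test, 13.3% higher and 16.5% lower in KO188. Brighter genes passed more often. A separate fit kept only the genes at or above the median of the mean levels, with its own Benjamini-Hochberg adjustment. In that fit 6217 of 9969 genes passed, 2594 higher and 3623 lower. These counts and the shares above come from different fits. The 5 members that passed were among the brighter genes, at percentiles 72.3 to 99.1 of the mean levels of all tested genes. The groups did not overlap for 5 of 6 members, against 41.5% of all tested genes. That share was not computed for the brighter genes alone. The median change of the family was 0.17 on the log2 scale and that of all tested genes -0.0053. Since the family was proposed with these results in view, its counts are a description. In a culture of mixed cells, a change in the number of cells that make a transcript and a change in transcript per cell cannot be told apart.

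**Figure D1:**
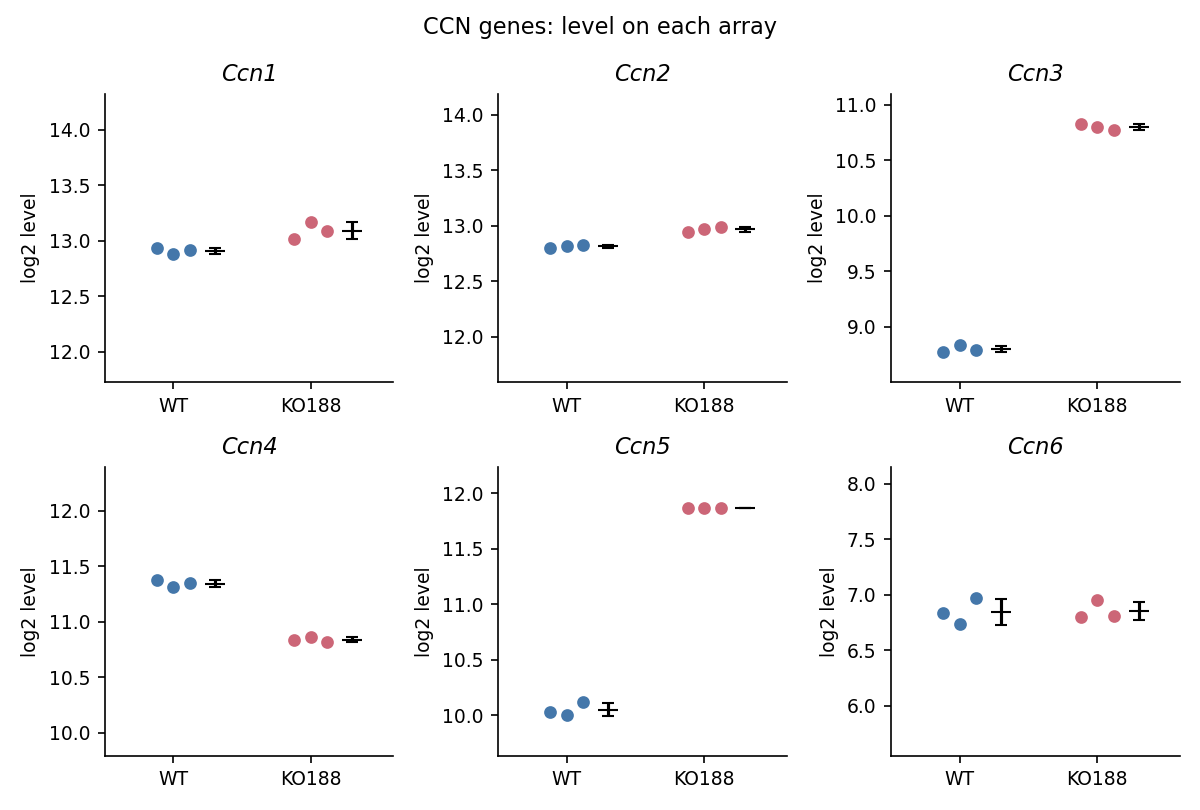
Level of each CCN gene on each array, with 1 panel per gene; the y axis is the deposited log2 level and spans the same width in every panel. Blue points are the 3 WT arrays, red points the 3 KO188 arrays, and the black mark beside them is the mean ± SD. Ccn3 and Ccn5 are the members whose KO188 arrays lie far above the WT arrays, and Ccn4 is the member whose KO188 arrays lie below.

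Ccn3, once named for its overexpression in nephroblastoma and known to restrain bone formation, had the largest change of the family. Its WT arrays read 8.78, 8.83 and 8.79 on the log2 scale, and its KO188 arrays read 10.83, 10.79 and 10.77. Every KO188 array was above every WT array, and the distance between the groups far exceeded the spread within them (SD 0.03 in WT and 0.03 in KO188, n = 3 each). The rise was 1.997 on the log2 scale (SE 0.029), or 3.99-fold with a 95% interval of 3.80 to 4.19 (limma adjusted p = 7.9e-08). It was the 89th largest rise among all tested genes. With 1 array left out in turn, the change of Ccn3 ran from 1.98 to 2.01.

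Ccn5, the member without the cystine knot, known for holding back smooth muscle growth and fat cell commitment, followed closely. Its WT arrays read 10.03, 10.00 and 10.11, and its KO188 arrays read 11.87, 11.86 and 11.86. The KO188 values were almost the same on all 3 arrays (SD 0.0023), and the WT values were more spread (SD 0.06), with WT replicate 3 the highest. KO188 replicates 2 and 3 had the same deposited value, 11.8647. Such ties occurred in other genes too, as in Lef1 (8.62705 on all 3 KO188 arrays), and their cause was not tested. The rise was 1.82 (SE 0.035), or 3.53-fold with a 95% interval of 3.33 to 3.74 (limma adjusted p = 2.9e-07), the 105th largest. With 1 array left out it ran from 1.80 to 1.85. Levels of Ccn3 and Ccn5 come from different probes and are not set against each other.

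Ccn4, the Wnt-induced member linked to osteoblast differentiation, went the other way. The WT arrays read 11.37, 11.31 and 11.34, and the KO188 arrays read 10.83, 10.86 and 10.81. The groups did not overlap, and the gap was many times the SD of either group (0.03 and 0.02). Ccn4 fell by 0.51 (SE 0.028), which is 1.42-fold lower with a 95% interval of 1.36 to 1.49 (limma adjusted p = 4.1e-05). It was the 261st largest fall among all tested genes, and it ran from -0.52 to -0.49 with 1 array left out.

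Ccn2, the gene of connective tissue growth factor, was bright in both groups, at percentile 98.9 of the mean levels of all tested genes. Its WT arrays read 12.80, 12.81 and 12.83 and its KO188 arrays 12.95, 12.97 and 12.99. The groups did not overlap, but the rise was small: 0.15 (SE 0.026), or 1.11-fold with a 95% interval of 1.07 to 1.16 (limma adjusted p = 0.0044). It was 0.10 with median centring and 0.21 with quantile normalization, and it passed the test under all 13 alternatives tried.

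Ccn1, an immediate early gene whose product binds integrins and promotes vessel growth, was also bright in both groups, at percentile 99.1 of the mean levels. Its WT arrays read 12.93, 12.88 and 12.92 and its KO188 arrays 13.02, 13.17 and 13.09. All KO188 arrays were above all WT arrays, with KO188 replicate 1 the closest to WT. The rise was 0.18 (SE 0.044), or 1.13-fold with a 95% interval of 1.05 to 1.22 (limma adjusted p = 0.021). With 1 array left out the call ended for WT replicate 1 (adjusted p = 0.054), WT replicate 2 (0.079), WT replicate 3 (0.065) and KO188 replicate 3 (0.063). Whether signal close to the top of the scale compressed the changes of Ccn1 and Ccn2 was not tested.

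Promoter sequences were available for Ccn1 and Ccn6 alone, so those of Ccn2, Ccn3, Ccn4 and Ccn5 were not searched. The promoter of Ccn1 is shown because this gene is a standard readout of YAP and TAZ, which act through TEAD factors. These are the 250 bases before the gene's start in RefSeq (GRCm38.p6, minus strand, chr3:145649986-145650235), written 5′ to 3′ along the gene, with matches to GGAATG (the TEAD core, here on the opposite strand as CATTCC) and TATAAA in capitals.
Ccn1 promoter: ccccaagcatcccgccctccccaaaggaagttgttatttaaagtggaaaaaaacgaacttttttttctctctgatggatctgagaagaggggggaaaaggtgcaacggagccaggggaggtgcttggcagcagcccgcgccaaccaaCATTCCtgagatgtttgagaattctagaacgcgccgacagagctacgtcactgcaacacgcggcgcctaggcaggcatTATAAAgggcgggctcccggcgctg
The TEAD core begins 103 bases and TATAAA 25 bases before the start. Searched on both strands in the same window of 32851 promoters, GGAATG was present in 12.6% and TATAAA in 12.4%. The Smad core CAGAC (42.2% of promoters), the TCF and LEF core CTTTGAT (3.21%), the CArG box bound by serum response factor (1.47%) and the interferon-stimulated response element (2.98%) had no match in the Ccn1 window. The window of Ccn6 held CAGAC, 22 bases before the start, and none of the other 5 motifs. A match describes letters and not binding.

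Ccn6, whose loss in people causes a progressive cartilage disorder, was dim. Its WT arrays read 6.84, 6.73 and 6.97 and its KO188 arrays 6.80, 6.95 and 6.81. The groups overlapped fully. The difference of 0.01 (SE 0.069) had a 95% interval of -0.16 to 0.17 (limma adjusted p = 0.95), and its sign turned with median centring and with quantile normalization. Its mean of 6.85 lay just above 6.72. That value, called the receptor guide here, is the level under which 95% of 1194 chemosensory receptor genes lay, and it is a rough mark, set after the data were seen, for genes that are not expressed. A change in Ccn6 would be compressed at such a level.

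**Figure D2:**
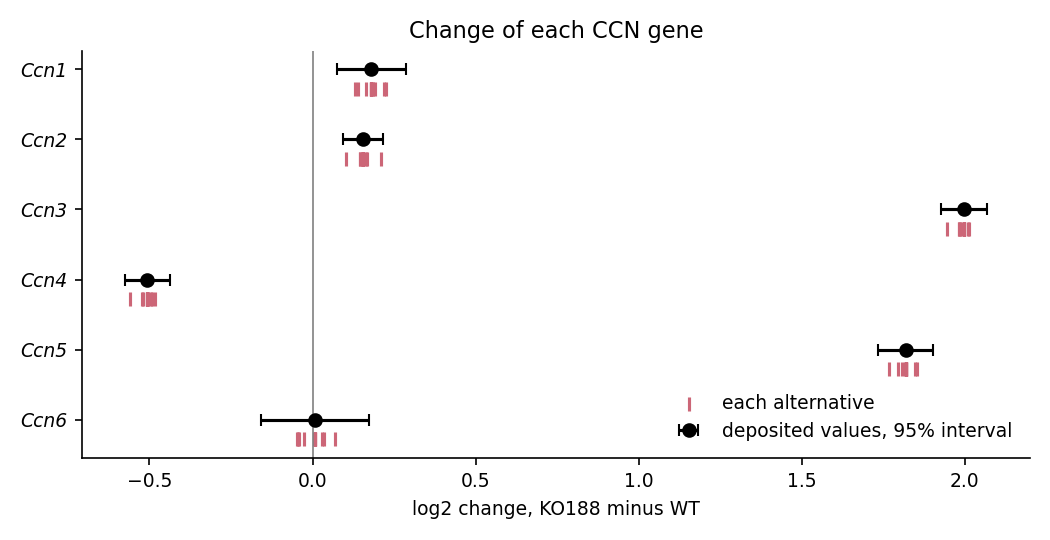
Change of each CCN gene; the x axis is the log2 change, KO188 minus WT. Black points and bars are the change and its 95% interval on the deposited values, and each red tick is 1 alternative setting. The intervals of Ccn3, Ccn5, Ccn4, Ccn2 and Ccn1 lie clear of 0, whereas that of Ccn6 spans it.

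**Figure D3:**
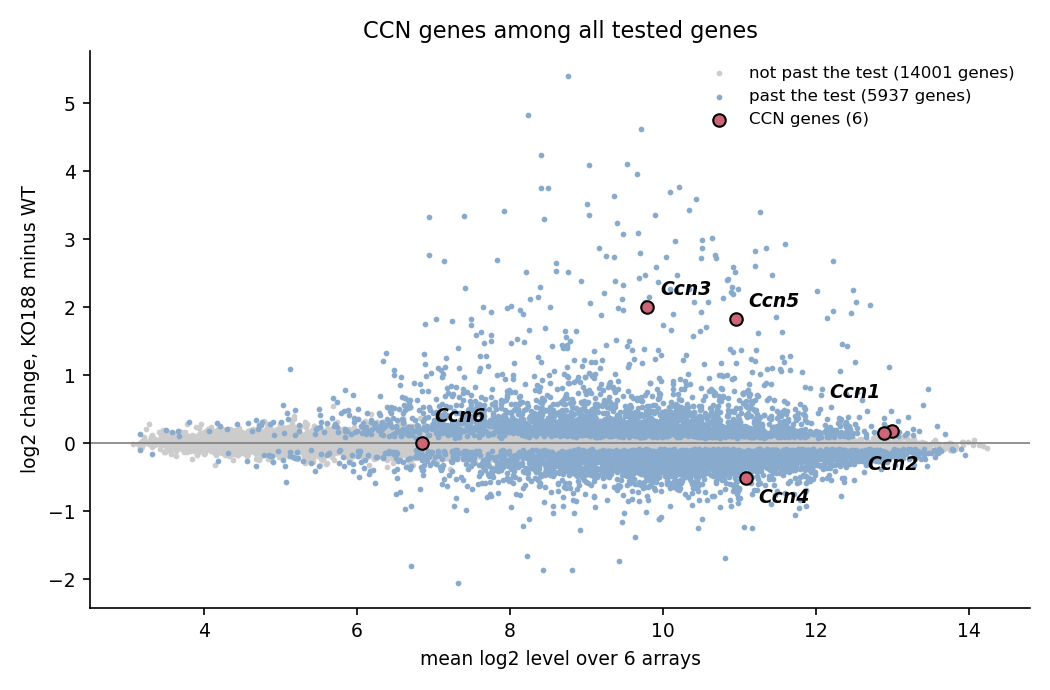
All tested genes by mean log2 level over the 6 arrays (x axis) and log2 change, KO188 minus WT (y axis). Grey points did not pass limma's test, blue points did, and red points are the CCN genes; Ccn1 and Ccn2 sit at the bright end near 0, and Ccn3 and Ccn5 in the upper cloud of strongly raised genes.

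The genes most alike to each called member were found by the root mean square difference over the 6 arrays, after the WT mean of each gene was taken off its log2 values. For Ccn3 they were Tmem106a (difference 0.041), Cxcl10 (0.043), a chemokine induced by interferon, and Ifi35 (0.050), an interferon-induced gene, which rose by 1.99, 2.03 and 1.93. For Ccn5 they were Parp12 (0.043), Rtp4 (0.043) and Ccrl2 (0.045), with rises of 1.84, 1.86 and 1.82; Parp12 and Rtp4 are interferon-induced. The WT level of Ccrl2 (6.58) lay under the receptor guide, so its rise is inexact. For Ccn4 the closest were Vbp1 (0.017), Lpgat1 (0.020) and Slc5a3 (0.021), which fell by 0.50, 0.51 and 0.49. For Ccn2 they were Mdfic, Mrgbp and Gna13 (0.011 to 0.012), and for Ccn1 they were Apobr, Bmf and Cldn20 (0.021 to 0.022). The call of Apobr was lost in 8 of 13 alternatives and that of Cldn20 in 4 of 13. Such matches rest mostly on the size of 1 group difference.

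Receptors of CCN proteins included several integrin genes that were lower in KO188. Of 14 measured genes, 2 rose, 4 fell and 8 did not pass, with a median change of -0.06. Here and in the lists below, counts stand beside 13.3% higher and 16.5% lower over all tested genes, and no list was tested against these shares. The shares include dim genes, which passed less often. Itga6, the alpha chain of a laminin-binding integrin that also binds CCN1 and CCN2, fell from 10.33 to 8.95 (-1.38, SE 0.047, limma adjusted p = 4.4e-06). Itgav, the alpha chain of the vitronectin receptors that bind several CCN proteins, fell by 0.54, and Itgb1, its frequent partner chain, fell by 0.27. The Wnt coreceptor gene Lrp6, to which CCN2 binds, rose by 0.19. Itgb3 (-0.12, adjusted p = 0.20) and Lrp1 (0.01, adjusted p = 0.91) did not pass.

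Among 11 genes of factors and matrix proteins that CCN proteins bind, 3 rose and 4 fell, with a median of -0.03. Igf1, an insulin-like growth factor, rose by 0.48. Fgf2, a fibroblast growth factor, fell by 0.64, and Hspg2, the gene of perlecan, fell by 0.38. Dcn, which encodes decorin, a proteoglycan that binds CCN2, fell from 8.79 to 7.57 (-1.22, SE 0.084, limma adjusted p = 1.0e-04). Bmp4, whose product CCN2 binds, rose by 0.32, and Tgfb1, an inducer of Ccn2, fell by 0.41. Vegfa, whose product CCN2 binds, differed by 0.07 (adjusted p = 0.092).

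The pathway upstream of Ccn1 and Ccn2 showed changes in both directions. Of 18 Hippo and TEAD genes 3 rose and 6 fell, with a median of -0.07. Wwtr1, the gene of the coactivator TAZ, fell from 10.80 to 10.49 (-0.31, SE 0.029, limma adjusted p = 3.8e-04). Yap1 differed by -0.08 (adjusted p = 0.093) and passed in 4 of 13 alternatives, median centring among them (-0.13, adjusted p = 0.017). Tead2 fell by 0.27, while Tead1 (-0.01), Tead3 (0.10) and Tead4 (-0.13) did not pass. Tead4 passed in 2 of 13 alternatives, median centring among them (-0.18, adjusted p = 0.037). Tead3 passed among the brighter genes alone (adjusted p = 0.018), and the sign of Tead1 turned with quantile normalization (0.029). Sav1, a Hippo scaffold gene, rose by 0.45, Vgll4, a competitor of YAP for TEAD, rose by 0.43, and Wwc1 fell by 0.64.

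Other targets of YAP and TAZ moved in both directions beside the small rises of Ccn1 and Ccn2. Of 20 measured targets 4 rose, 8 fell and 8 did not pass, with a median of -0.02. F3, the tissue factor gene, rose by 0.46 and Tgfb2 rose by 0.38, whereas Nt5e, an ectonucleotidase gene, fell by 0.85 and Dock5 fell by 0.37. Ankrd1, also a listed target, fell by 0.20 (limma adjusted p = 0.0012). Of 13 TGF-beta targets, 6 rose and 4 fell, with a median of 0.04. The collagen gene Col3a1 rose by 0.43, while Bhlhe40 fell by 0.46 and Skil, a Smad repressor gene, fell by 0.31. Of 15 genes of serum response factor, its coactivators and their targets, 3 rose and 9 fell, with a median of -0.13. Cnn1 fell by 0.73, Fhl1 fell by 0.51 and Tagln fell by 0.42, genes of actin-linked proteins, and the actin gene Actg2 fell by 0.31. The 3 that rose were Myl9 (0.24), Fhl2 (0.15) and Tpm2 (0.14). Acta2, another actin gene, differed by -0.04 (limma adjusted p = 0.33). No difference between Ccn1 or Ccn2 and these lists was tested.

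Wnt targets were read beside Ccn4, which is named for its induction by WNT1. Of 13 measured targets 2 rose, 3 fell and 8 did not pass, with a median of 2.7e-04. Lef1, a Wnt transcription factor gene and target, fell by 0.28 (adjusted p = 0.0043), Znrf3, a Wnt receptor ligase gene, fell by 0.13, and Apcdd1, a Wnt inhibitor gene, rose by 0.22. Axin2, the most widely used readout of the pathway, was 7.48 in WT and 7.52 in KO188 (0.04, adjusted p = 0.45). The count of 5 past the test was 3 with quantile normalization.

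CCN5 is placed with the zinc finger protein Zfp423 and BMP4 in the commitment of fat cell precursors, and these genes were read beside Ccn5. Of 10 measured, 3 rose, 1 fell and 6 did not pass, with a median of 0.01. Pparg, the lead transcription factor gene of fat cells, fell from 9.74 to 7.88 (-1.86, SE 0.083, limma adjusted p = 1.5e-05). Ebf1 rose by 0.55 and Zfp521, a relative and opponent of Zfp423, rose by 0.45, beside the rise of Bmp4 given above. Zfp423 itself was 7.44 in WT and 7.43 in KO188 (adjusted p = 0.93). Smad4 (-0.07), Cebpa (0.07), Bmpr1a (-0.05), Ebf2 (0.04) and Cebpb (-0.03) did not pass. The sign of Ebf2, whose level of 5.71 in WT lay under the receptor guide, turned with median centring (-0.016). Smad4 passed in 3 of 13 alternatives, median centring among them (-0.12, adjusted p = 0.016).

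Genes whose products share the amino-terminal domain of the CCN family showed smaller values of change than Ccn3, Ccn4 and Ccn5. Those that passed the test changed by more than Ccn1 (0.18) and Ccn2 (0.15). Of 10 genes of insulin-like growth factor binding proteins and relatives, 1 rose and 3 fell, with a median of -0.04 and a range of -0.36 to 0.28. Igfbp5 rose by 0.28, and Igfbp3 fell by 0.36, Igfbp6 fell by 0.32 and Htra1 fell by 0.30. The difference from the CCN family was not tested.

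**Figure D4:**
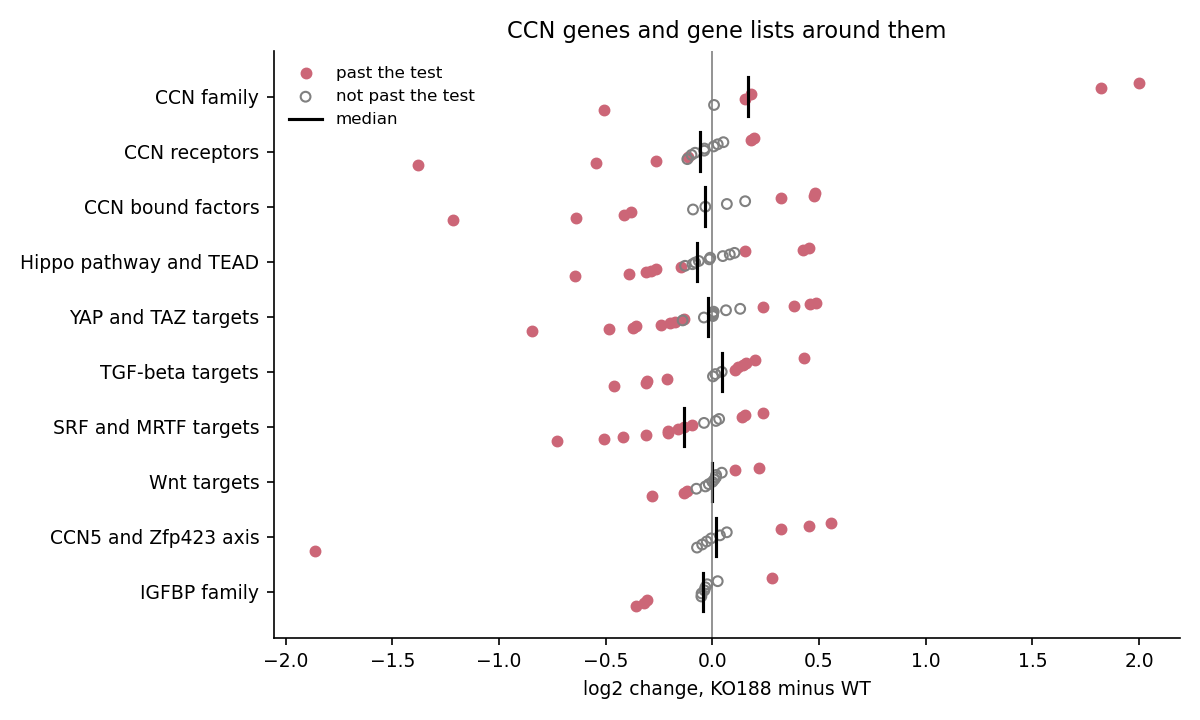
Log2 change, KO188 minus WT (x axis), of each measured gene in the CCN family and 9 lists around it (rows). Filled red points passed limma's test, open grey points did not, and the black bar is the median of the list; every list holds changes on both sides of 0, and Ccn3 and Ccn5 are the highest points in the plot.

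Neighbouring genes were read to show whether the large changes covered more than the member; this reading was added after the data were seen, and gene order is that of RefSeq. Around Ccn4, 3 of 4 flanking protein-coding genes also fell, where 16.5% of all tested genes were lower in KO188. Ndrg1, a hypoxia-responsive gene next to it, fell by 0.53 (SE 0.034, limma adjusted p = 6.9e-05), St3gal1, a sialyltransferase gene, fell by 0.40 and Sla, an adaptor gene on the other side, fell by 0.47. St3gal1 fell by 0.19 when its probe sets were averaged, and the KO188 level of Sla (6.63) lay under the receptor guide. Tg, next to Sla, differed by -0.14 (adjusted p = 0.077) and passed in 2 of 12 alternatives, median centring among them (-0.19, adjusted p = 0.013). Around Ccn3, Colec10 rose by 0.44 and Taf2 fell by 0.29, while Mal2, adjacent to Ccn3, differed by 0.01 at a level of 5.27 in WT, under the receptor guide, with a sign that turned with median centring. Beside Ccn5, Ada, the adenosine deaminase gene, rose by 0.29, and Kcnk15 on the other side differed by -0.04 (adjusted p = 0.56). Pkig, next to Ada, differed by -0.02 (limma adjusted p = 0.83). Rims4, next to Kcnk15, differed by -0.11 (limma adjusted p = 0.18) and passed in 2 of 13 alternatives. Ccn3 and Ccn4 lie on the same chromosome, 15, and moved in opposite directions. Flanking genes of the other members passed as well, where 29.8% of all tested genes passed: Znhit6 (0.43) and Bcl10 (-0.17) near Ccn1, and Enpp3 (0.76) near Ccn2. Near Ccn6, which itself did not pass, Fyn (-0.24) and Traf3ip2 (0.28) passed. Col24a1, Ddah1, Stx7, Moxd1, Fam229b and Tube1 did not pass, and Enpp1 had no probe set used here.

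**Figure D5:**
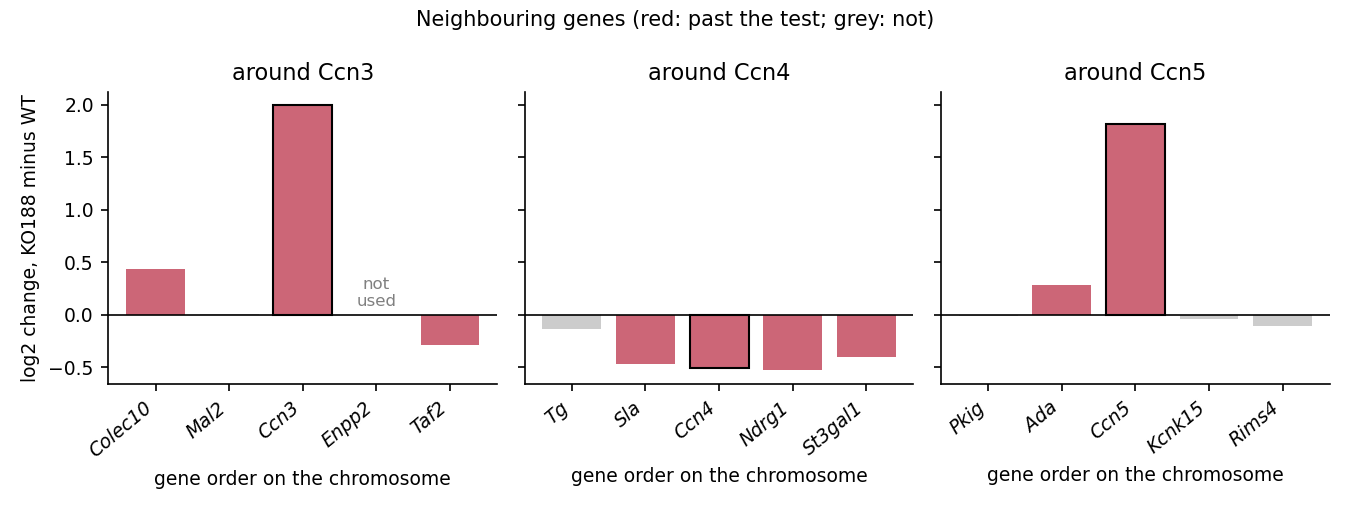
Log2 change, KO188 minus WT (y axis), of Ccn3, Ccn4 and Ccn5 (outlined bars) and the 2 nearest protein-coding genes on each side, in the order of the chromosome (x axis). Red bars passed limma's test, grey bars did not, and Enpp2 had no probe set used here; the bars around Ccn4 all point down, whereas the bars of Ccn3 and Ccn5 are taller than those beside them.

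The labelled cell type was checked against markers. The stromal genes Pdgfrb (12.34 in WT), Cxcl12 (11.54) and Pdgfra (9.92) were well above the receptor guide. Thy1 (6.88) lay just above the guide, and Lepr (5.18) lay under it. Of 9 stromal markers measured 4 rose, among them Pdgfra (0.87) and Cxcl12 (0.40), and 2 fell, Nt5e (-0.85) and Cd44 (-0.33). Of 8 osteoblast markers measured 3 rose, 1 fell and 4 did not pass, and 5 of the 8 had means at or under the guide. Alpl, of mineral deposition, rose by 2.08, Col1a1 rose by 0.20 and Sp7, an osteoblast transcription factor gene, rose by 0.36, while Phex fell by 0.16. Sp7 and Phex were among the dim ones. With 1 array left out in turn, the Sp7 call ended in 4 of the 6 fits, those lacking a WT array or KO188 replicate 3 (adjusted p = 0.052 to 0.070). The Phex call also ended in 4 of the 6, those lacking replicate 1 of either group, WT replicate 2 or KO188 replicate 3 (adjusted p = 0.10 to 0.13). Smooth muscle markers fell in 4 of 8, with Mcam at -1.24, and rose in 1; their mean level was 10.54 to 10.56 over the WT arrays and 10.23 to 10.24 over the KO188 arrays. Of 10 macrophage markers 0 passed limma's test (3 at an unadjusted p under 0.05), 6 had means at or under the guide, and the list mean was 6.66 to 6.70 in WT and 6.61 to 6.68 in KO188. Of 8 cartilage markers 1 rose, Sox9 (0.52). Of 9 fat cell markers 2 fell, Pparg and Fabp4 (-0.33), 0 rose and 7 did not pass. Among those 7, Lep (0.19) and Lipe (0.09) were higher at an unadjusted limma p under 0.05. Means at or under the guide were found for 2 of the 9, Lep among them. Of 8 endothelial markers 1 rose, Kdr (0.24), which lay under the guide in both groups and did not pass without any 1 of the WT arrays (adjusted p = 0.051 to 0.079) or without KO188 replicate 1 (0.061). Of 7 lymphoid and erythroid markers 0 passed limma's test (0 at an unadjusted p under 0.05). What part these other cell types have in the changes of the CCN genes was not tested.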

How the data were processed

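The authors deposited 1 log2 value per probe set and array, 35556 probe sets on 6 Affymetrix arrays. RMA, Partek and Affymetrix Expression Console are named per the submitters' processing notes, with no version, role or order, and no label names the build. The array medians were 7.43 to 7.50, and arrays give no counting depth, so the number of arrays limits the precision. Of 23410 probe sets in GEO's platform annotation, 21789 have 1 symbol, 1621 have several and were not named, and 0 have none; 0 symbols changed through RefSeq's gene table (GRCm38.p6). For 999 genes with several probe sets the brightest was used. Groups came from the sample titles. Changes are KO188 minus WT from limma 3.58.1 in R 4.3.3 (lmFit, eBayes without trend, all 6 arrays, no covariate, Benjamini-Hochberg over 19938 genes, threshold 0.05, 95% intervals), tested on simulated data. The members and gene lists were chosen with earlier results of these data known. Named are all members, up to 4 genes of lowest p per list, the Zfp423 list, TAZ, YAP and TEAD genes, and the 3 genes most alike to each called member; others were chosen after their values were seen. Lists were described by counts and medians. Alternatives were median centring, quantile normalization, a filter on dim genes, trend with robust variance, a replicate block, averaged or separate probe sets, and each array left out. RMA compresses changes of dim genes. Promoters and miRNA arms came from RefSeq tables.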

Additional observations from a re-analysis of the deposited data

How the results depend on the processing

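The directions and calls of Ccn2, Ccn3, Ccn4 and Ccn5 were kept under all 13 alternatives, with changes from 0.10 to 0.21, 1.95 to 2.01, -0.56 to -0.48 and 1.77 to 1.85. The rise of Ccn1 was 0.18 with the replicate block (adjusted p = 0.057) and 0.14 to 0.22 with 1 array left out, and 5 of its 13 alternatives lost the call; 4 or 5 members were called throughout. The replicate block was formed from the replicate numbers, since no label names a batch that holds both groups. The deviations of same-numbered arrays had correlations of 0.02, 0.01 and -0.03. Each is 1 value over many genes, so it cannot show whether a smaller set, such as Ccn1, shared a deviation by number. Whether Ccn1 did was not tested. The replicate block called 5019 genes against 5937 without it. The sign of Ccn6, never called, turned with median centring (-0.044) and quantile normalization (-0.026), and it ran from -0.048 to 0.068 with 1 array left out. Among uncalled genes, signs also turned with median centring for Ebf2 (-0.016) and Mal2 (-0.044), with quantile normalization for Mal2 (-0.020) and Tead1 (0.029), and with 1 array left out for Mal2 (-0.051 to 0.050), Pkig (-0.045 to 0.025), Tead1 (-0.027 to 0.0016) and Zfp423 (-0.031 to 0.0095). Wnt targets past the test were 3 with quantile normalization and 3 with the replicate block against 5, and osteoblast markers were 2 in 4 settings against 4. Macrophage markers were 1 or 2 in 6 settings against 0, endothelial markers 0 in 6 settings and 2 with quantile normalization against 1, cartilage markers 2 with the replicate block against 1, and lymphoid and erythroid markers 1 without KO188 replicate 3 against 0. The centre of all genes moved to -0.06 with median centring, where 27.9% of calls were higher in KO188 in place of 44.5%; 7106 genes were called there, and 4835 to 5553 with 1 array left out. The cause of these shifts was not tested. Signal close to the receptor guide limits Ccn6.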
